A study of Mus musculus and Homo sapiens with 20 samples.

Results

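The comparison described here sets H3K27me3 in wild-type (WT) haematopoietic stem and progenitor cells (HSPCs) against H3K27me3 in WT mouse embryonic stem (mES) cells. It uses 4 peak lists, 2 per cell type, of the 20 CUT&Tag libraries in the series, and was restricted to the 19 autosomes. The HSPCs were c-Kit-positive cells without lineage markers from the marrow of WT mice aged 6 to 8 weeks, taken by magnetic sorting, a mixture of stem cells and several kinds of progenitor rather than 1 cell type. The mES cells were a WT line carrying both Tet2 alleles, grown in serum and LIF with the inhibitors CHIR99021 and PD0325901 and moved off feeder cells before use. All 4 libraries were made with the same H3K27me3 antibody and none received a treatment. Side values further on come from 4 H3K27me3 lists of Tet2 knockout (KO) HSPCs and mES cells. Another 4 lists, of ubiquitylated H2A (H2AK119ub), are from the WT cells. The KO HSPCs also came from mice aged 6 to 8 weeks. The sources do not say how many mice gave each HSPC library or whether the mES libraries came from separate cultures, so the spread between the 2 libraries of a group may be technical. Culture, tissue of origin and cell type cannot be told apart in this design.

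H3K27me3 is trimethylation of lysine 27 on histone H3 and is placed by Polycomb repressive complex 2 (PRC2), whose catalytic subunit is Ezh2 or Ezh1. It is found over silent developmental genes, above all those with CpG-rich promoters, and is read by some forms of Polycomb repressive complex 1, which ubiquitylates H2A (H2AK119ub). In mES cells it is best known at promoters of lineage regulators that are silent but can be switched on later. During blood formation it is known to be removed from genes of the lineage and to cover genes of the embryonic state.

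The lists hold positions of called peaks and no read counts, so depth is unknown and a level of H3K27me3 cannot be compared. Every value below is a number of places or a number of bases under a peak. No RNA was measured in these 4 libraries, so the labelled cell types could be compared only with where the mark lies on their marker genes, given further on.

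Sequences are shown first for 5 genes, because the promoter classes described below differ in CpG content. Each line holds the 250 bases directly before the GENCODE start on GRCm38.p6 (the mm10 assembly), read 5′ to 3′ on the strand of the gene, with CpG dinucleotides in capitals. Gli2, a transcription factor of Hedgehog signalling, and Lpin2, a phosphatidate phosphatase, headed the ranking of HSPC-only and mES-only promoters respectively. Pou5f1, which encodes the pluripotency factor OCT4, Eif1, a translation initiation factor, and Mpo, the granule enzyme myeloperoxidase, were chosen after their values were seen. Gli2 (chr1:119053620-119053869, minus strand), Pou5f1 (chr17:35505768-35506017, plus strand) and Eif1 (chr11:100319635-100319884, plus strand) were covered in HSPCs only, and Lpin2 (chr17:71182310-71182559, plus strand) and Mpo (chr11:87793331-87793580, plus strand) in mES cells only.
Gli2: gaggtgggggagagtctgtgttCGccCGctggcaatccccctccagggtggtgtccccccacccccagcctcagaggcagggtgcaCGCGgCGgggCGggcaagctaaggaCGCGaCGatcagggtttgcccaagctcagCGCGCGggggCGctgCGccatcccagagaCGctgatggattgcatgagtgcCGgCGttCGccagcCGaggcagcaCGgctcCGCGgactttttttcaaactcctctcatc
Pou5f1: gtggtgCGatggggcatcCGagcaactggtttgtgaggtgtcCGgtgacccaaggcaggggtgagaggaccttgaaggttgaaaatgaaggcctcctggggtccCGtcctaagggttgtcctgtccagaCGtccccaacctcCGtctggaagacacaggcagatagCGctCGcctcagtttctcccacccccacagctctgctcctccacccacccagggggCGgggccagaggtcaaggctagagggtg
Eif1: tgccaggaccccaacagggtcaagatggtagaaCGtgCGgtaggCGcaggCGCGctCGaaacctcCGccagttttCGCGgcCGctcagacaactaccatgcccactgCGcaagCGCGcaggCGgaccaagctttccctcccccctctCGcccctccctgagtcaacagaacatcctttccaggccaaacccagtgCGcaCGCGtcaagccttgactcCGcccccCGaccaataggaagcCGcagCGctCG
Lpin2: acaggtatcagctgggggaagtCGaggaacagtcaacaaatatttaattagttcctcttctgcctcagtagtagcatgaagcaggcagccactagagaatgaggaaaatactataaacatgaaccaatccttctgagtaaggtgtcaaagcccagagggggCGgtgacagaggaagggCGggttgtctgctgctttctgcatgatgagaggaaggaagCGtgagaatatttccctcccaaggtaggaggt
Mpo: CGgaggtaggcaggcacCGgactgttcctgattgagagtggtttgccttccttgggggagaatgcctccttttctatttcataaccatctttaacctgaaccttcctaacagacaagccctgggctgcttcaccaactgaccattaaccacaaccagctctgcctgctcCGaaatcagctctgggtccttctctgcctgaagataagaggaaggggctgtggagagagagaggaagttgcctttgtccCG
These stretches held 22 CpGs for Gli2, 9 for Pou5f1, 23 for Eif1, 4 for Lpin2 and 4 for Mpo. Over the whole promoter window, CpG observed/expected, the number of CpGs relative to that predicted from C and G content, was 0.674 for Gli2, 0.717 for Eif1 and 0.155 for Mpo. Pou5f1 at 0.259 and Lpin2 at 0.623 lay on the other side of the medians of their classes, which are given below.

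HSPCs had fewer peaks and less covered sequence than mES cells, but a larger share of it lay in wide domains. The HSPC lists held 84467 and 85015 autosomal peaks and the mES lists 108110 and 118791. The HSPC peaks covered 163.5 and 166.3 Mb, which is 6.83% and 6.94% of the known autosomal bases. The mES peaks covered 186.6 and 229.6 Mb, or 7.79% and 9.58%. The mean covered length was 164.9 ± 1.93 Mb (SD, n = 2) in HSPCs and 208.1 ± 30.4 Mb (SD, n = 2) in mES cells, a difference of -43.2 Mb. The groups did not overlap, and the mES spread came from replicate 2, which had more and wider peaks than replicate 1. Without mES replicate 2 the difference was -21.65 Mb, and without mES replicate 1 it was -64.7 Mb. Peaks were ranked by width, and 50% of the covered length lay in peaks of at least 4875 and 4897 bp in HSPCs, against 3458 and 4162 bp in mES cells. Peaks of at least 10 kb held 33.7% and 33.8% of the covered length in HSPCs and 21.9% and 26.6% in mES cells. By number such wide peaks did not separate the groups, with 2691 and 2746 in HSPCs and 2443 and 3453 in mES cells. The widest autosomal peak measured 282 kb in each HSPC library, 115.8 kb in mES replicate 1 and 97.9 kb in mES replicate 2.

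**Figure D1:**
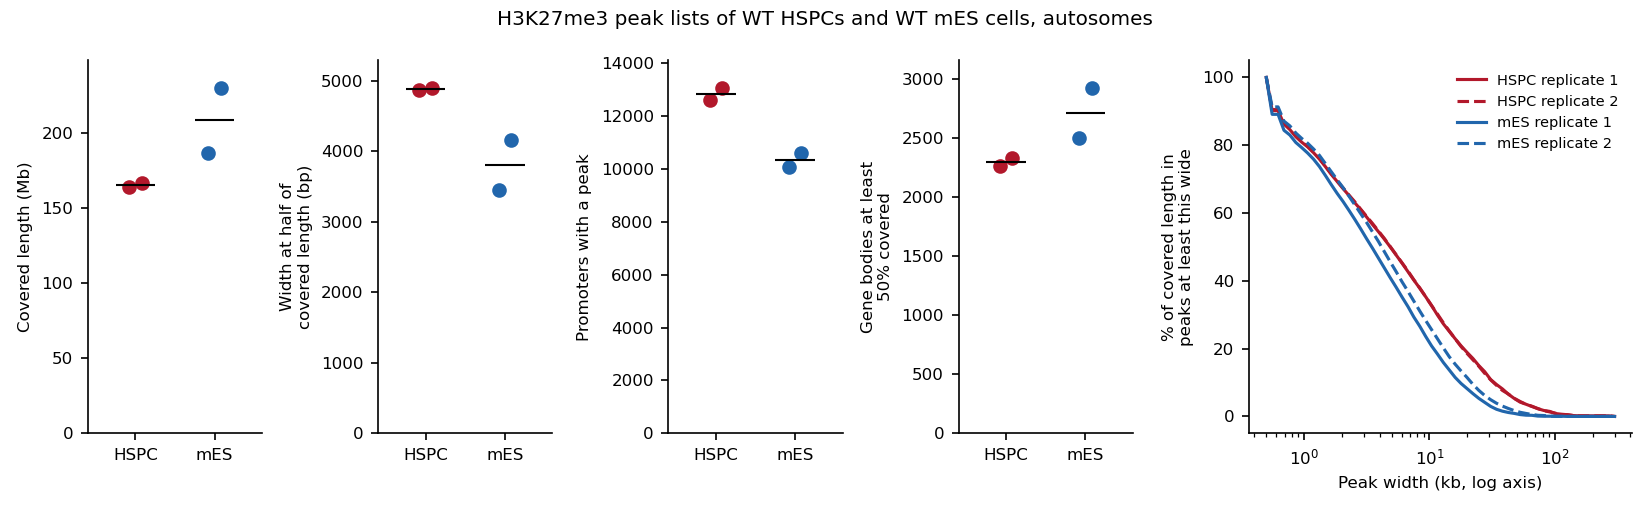
Left 4 panels: covered length (Mb), width at which 50% of the covered length is reached (bp), promoters with a peak and gene bodies at least 50% covered (counts) on the y axes, with 1 point per library and a line at the mean of 2. Right panel: the percentage of covered length (y axis) in peaks at least as wide as the x axis value (kb, log axis), with 1 line per library, in which both HSPC lines lie above both mES lines at 10 kb.

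With 2 libraries against 2, the exact permutation test has 6 assignments and cannot give a two-sided p under 0.333. The covered length, peak number, width at 50% of the covered length and share in wide peaks each reached that p (0.37 after Benjamini-Hochberg adjustment over 10 tests), as did the other measures tested in the same way whose groups did not overlap. GC content of the covered bases, at 49.5% and 49.7% in HSPCs and 50.1% and 49.5% in mES cells against 41.9% for the autosomes, did overlap (exact permutation p = 1). Soft-masked repeats made up 18.8% and 18.6% of covered bases in HSPCs and 16.3% and 17.3% in mES cells, below the 33.5% of the autosomes in all 4. Covered sequence between genes took 39.6% and 39.4% in HSPCs and 40.3% and 42.0% in mES cells, against 50.9% of all autosomal bases. With peaks of at least 1 kb only, this difference shrank from -1.713 to -0.2552 percentage points and the groups overlapped (exact permutation p = 1).

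The 2 libraries of a cell type resembled each other more than they resembled the other cell type. The Jaccard index of covered bases was 0.618 between the HSPC libraries and 0.671 between the mES libraries, and 0.307 to 0.315 across cell types. A wide peak is more easily touched by another peak than a narrow one, so shares by width describe the lists only. Of HSPC peaks of at least 10 kb, 92.5% and 92.2% touched a peak in both mES libraries, and of mES peaks of that width 94.2% and 91.9% touched one in both HSPC libraries. Peaks of at most 501 bp, the most frequent width in all 4 lists, did so for 30.7% and 30.9% in HSPCs and 19.9% and 16.5% in mES cells. Between replicates the same measure gave the following. In HSPCs 37.5% and 35.7% of them touched a peak of the other replicate, compared with 99.9% and 100% of peaks of at least 10 kb. In mES cells 67.9% of them did so in replicate 1 and 37.9% in replicate 2, the longer list.

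Promoters, taken as 1 kb on each side of the start of 20807 protein-coding genes, were marked more often in HSPCs. A peak touched 12597 and 13048 promoters in the HSPC libraries (60.5% and 62.7%) and 10078 and 10586 in the mES libraries (48.4% and 50.9%). The groups did not overlap (exact permutation p = 0.333, the smallest possible). The mean difference of 2490.5 promoters was 911 with peaks of at least 1 kb only, 864.5 with at least 50% of the window covered and 3859.5 with equal numbers of the widest peaks. That last setting keeps the 84467 widest peaks of each list and so drops narrow peaks almost only from the mES lists, which raises the difference by construction. The difference turned to -406.5 with only promoter peaks of at least 5 kb counted, a threshold chosen after seeing the data. Promoters took 8.96% and 9.16% of covered bases in HSPCs and 6.84% and 6.02% in mES cells, against 1.63% of all autosomal bases. The larger number in HSPCs went with smaller cover per promoter. At marked promoters the median share of the window under a peak was 58.4% and 59.5% in HSPCs and 69.8% and 73.7% in mES cells.

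The promoters were then sorted by which libraries marked them. A total of 7642 (36.7%) were marked in all 4 libraries and 5332 (25.6%) in none. Promoters marked in both HSPC libraries and neither mES library numbered 2982, or 14.3% of those tested. The opposite pattern was held by 1073 promoters, or 5.16%. The other 3778 had mixed calls, and in this group the replicates of at least 1 cell type disagreed. These shares are the background for the gene lists below. Members of a class are not all separate events, because the windows of 864 HSPC-only and 64 mES-only promoters overlapped the window of another gene and can be marked by 1 peak.

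HSPC-only promoters mostly carried narrow peaks set on the start site. In the narrower of the 2 HSPC libraries the widest peak touching the promoter was at most 501 bp for 965 of them (32.4%) and wider than that but under 1 kb for 1160 (38.9%). A peak of at least 5 kb in both HSPC libraries was found at 188, which is 0.904% of all promoters. The mES-only class was spread more evenly over widths, with 255 (23.8%) at no more than 501 bp and 144 (13.4% of the class, 0.692% of all promoters) at 5 kb or more. Around HSPC-only starts, cover in HSPCs was 79.0% and 81.4% in the first 200 bp downstream and 10.8% and 11.5% close to 5 kb downstream. Around mES-only starts, cover in mES cells was 74.4% and 80.0% in the first 200 bp downstream and still 25.2% and 30.9% close to 5 kb. The absence of the other cell type inside the window follows from the class definition. Outside it, at either end of the 5-kb flanks, mES cover of HSPC-only genes was 1.80% to 3.95% and HSPC cover of mES-only genes 3.66% to 5.05%.

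**Figure D2:**
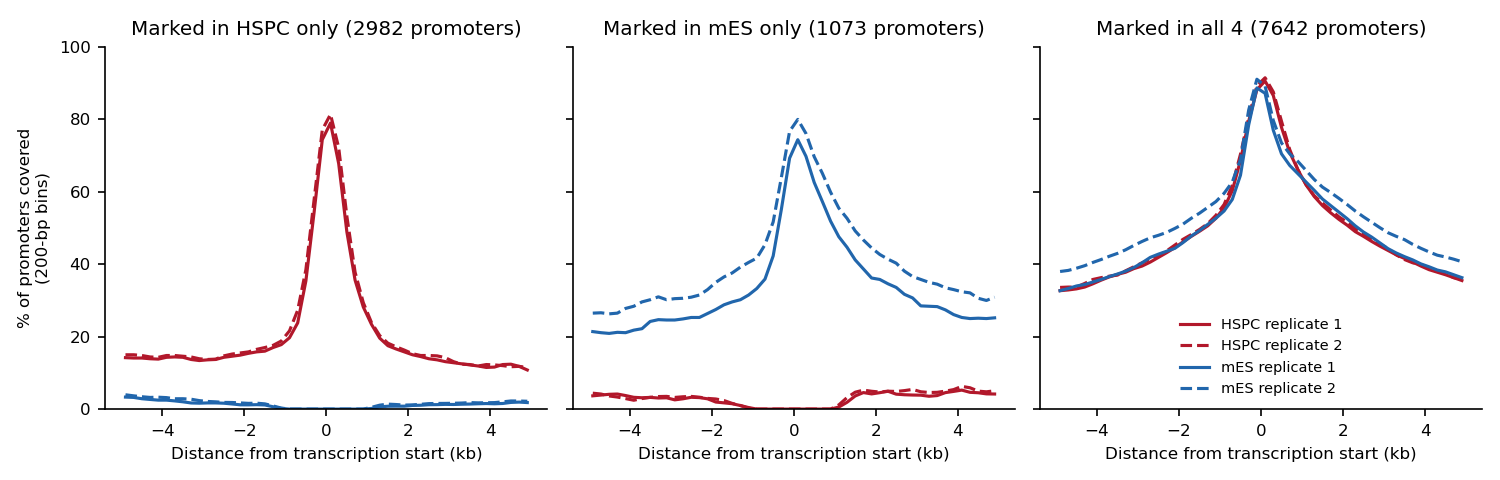
Percentage of promoters under a peak (y axis, 200-bp bins) by distance from the transcription start (x axis, kb) in each of the 4 libraries, for promoters marked in HSPCs only, in mES cells only and in all 4. The HSPC-only profile is a sharp summit at the start, whereas the mES-only profile keeps cover of 25.2% and 30.9% near 5 kb downstream.

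The 2 classes differed in base composition, a property the sorting did not use. CpG observed/expected had a median of 0.653 in HSPC-only promoter windows and 0.273 in mES-only windows, against 0.486 over all promoters. The median was 0.568 for promoters marked in all 4 libraries and 0.166 for those marked in none. CpG-rich windows, here those with an observed/expected value of at least 0.6 and a GC content of at least 50%, made up 53.7% of the HSPC-only class, 10.2% of the mES-only class and 30.8% of all promoters. Peaks lay on 85.1% and 88.3% of CpG-rich promoters in HSPCs but on 56.6% and 58.4% in mES cells. At the other promoters the figures were closer, 49.6% and 51.3% in HSPCs and 44.8% and 47.5% in mES cells. Below an observed/expected value of 0.4 the mES libraries marked more promoters than the HSPC libraries in every bin, and from 0.4 upwards they marked fewer. In the bin from 0.3 to 0.4 the shares were 56.0% and 58.5% in HSPCs and 61.5% and 64.5% in mES cells. In the bin from 0.8 to 0.9 they were 81.7% and 85.1% in HSPCs and 46.7% and 49.0% in mES cells.

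**Figure D3:**
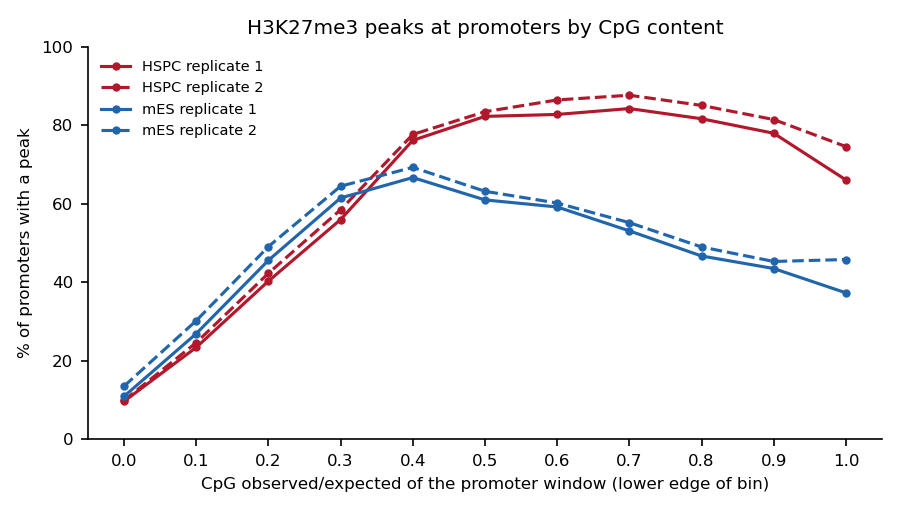
Percentage of promoters with a peak (y axis) by CpG observed/expected of the promoter window (x axis, bins named by their lower edge), with 1 line per library. The mES lines lie above the HSPC lines below 0.4 and below them from 0.4 upwards, where the gap widens to 81.7% and 85.1% against 46.7% and 49.0% in the bin that starts at 0.8.

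Libraries that the sorting did not use gave the following. In Tet2 KO cells, H3K27me3 peaks touched 90.4% and 89.4% of the HSPC-only promoters in KO HSPCs and 2.35% and 1.44% in KO mES cells. The mES-only promoters were touched for 84.4% and 73.3% in KO mES cells and 15.4% and 15.8% in KO HSPCs. Over all promoters the touched shares were 61.7% and 61.3% in KO HSPCs and 42.1% and 37.6% in KO mES cells. The full HSPC-only call was repeated in KO cells by 2431 of 2982 promoters (81.5%) and the full mES-only call by 570 of 1073 (53.1%). Over all promoters these calls were made in KO cells for 23.1% and 4.78%. The KO mES lists touched a smaller share of all promoters than the WT mES lists (48.4% and 50.9%). The repeat shares of the 2 classes are therefore not a like comparison. The H2AK119ub libraries of the WT cells separated the classes less. HSPC-only promoters had an H2AK119ub peak in 93.0% and 90.6% of cases in HSPCs and in 75.0% and 79.1% in mES cells. For mES-only promoters the shares were 80.6% and 81.4% in mES cells and 53.2% and 42.4% in HSPCs. Over all promoters the shares were 70.6% and 65.6% in HSPCs and 69.2% and 70.1% in mES cells, so that the mES values of HSPC-only promoters lay near this background. Promoters without H3K27me3 in any of the 4 libraries had H2AK119ub in 17.6% to 24%. The narrow HSPC-only promoters, those under 1 kb, carried H2AK119ub in 94.6% and 92.6% in HSPCs and 73.3% and 78.3% in mES cells.

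The list of pluripotency genes, which includes factors that keep embryonic stem cells undifferentiated, stood out on the HSPC side by domain width. Of 40 measured members, 12 (30.0%) were HSPC only, 2 were mES only, 14 were marked in all 4, 6 in none and 6 had mixed calls. Of the 12, 7 had peaks of at least 5 kb in both HSPC libraries, as did 188 of the 2982 HSPC-only promoters (6.3%). Of the 14 shared members, 8 had an HSPC peak at least 2 times as wide as any mES peak, and 0 the reverse. The median widest promoter peak of the list was 6064.5 and 5373.5 bp in HSPCs and 0 bp in both mES libraries. For all promoters these medians were 628 and 645 bp in HSPCs and 0 and 501 bp in mES cells.

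Pou5f1 lay under peaks of 29040 and 28799 bp in HSPCs and no peak within 5 kb of its start in mES cells, and its gene body was 100% covered in both HSPC libraries and 0% in both mES libraries. Nanog, a homeobox factor of naive pluripotency, had peaks of 8369 and 3668 bp in HSPCs and none on its promoter in mES cells, where 501 bases were covered elsewhere within 5 kb in each library. Sox2, the partner of OCT4, had peaks of 38737 and 39264 bp in HSPCs, no peak in mES replicate 1 and a 501-bp peak in mES replicate 2. Sall4, a zinc finger factor of the same network, had 24520 and 22641 bp in HSPCs and none in mES cells, and Lin28a, an RNA-binding protein that blocks let-7 maturation, 12038 and 19128 bp and none. In each of these genes both HSPC peaks were wider than any mES peak, and mES peaks were narrow or absent. Apart from Nanog in HSPC replicate 2, all of these HSPC peaks exceeded 5 kb. Klf4 was marked in all 4, by 7408 and 7527 bp in HSPCs and 501 and 727 bp in mES cells. Esrrb, an orphan nuclear receptor, had widths that overlapped, 6202 and 24860 bp in HSPCs and 8197 and 13775 bp in mES cells, and a body covered to 67.4% and 69.1% in HSPCs and 36.8% and 41.1% in mES cells. The mES-only members were Dnmt3l, a cofactor of DNA methyltransferases (1940 and 2958 bp), and Gdf3, a ligand of the TGF-beta family (501 and 655 bp). Dppa2, Dppa4 and Tet1 were free of peaks in all 4 libraries.

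Transcription factors of blood stem cells and the myeloid lineage showed the reverse in width rather than in presence. Of 30 members, 23 were marked in all 4 libraries, 3 were mES only and 1 was HSPC only. Among the 23, 10 had mES peaks at least 2 times as wide as any HSPC peak and 0 had the reverse. Over all promoters marked in all 4, mES peaks were at least 2 times as wide at 1235 of 7642 (16.2%) and HSPC peaks at 1157 (15.1%). The list's median widest peak was 2275 and 3740.5 bp in HSPCs and 9666 and 12261.5 bp in mES cells. Its median gene body cover was 10.1% and 9.64% in HSPCs and 47.6% and 58.9% in mES cells.

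Spi1, which encodes the myeloid and B-cell factor PU.1, had peaks of 667 and 639 bp in HSPCs that touched 3.90% and 27.3% of its promoter, and peaks of 12670 and 13071 bp in mES cells that covered all of it. Cebpa, a factor of granulocyte development, had 5914 and 5539 bp in HSPCs and 15299 and 15514 bp in mES cells. Fli1, an ETS factor of stem cells and megakaryocytes, had 2223 and 2637 bp against 13682 and 13690 bp. Tal1, a regulator of blood formation, had 11750 and 10078 bp in HSPCs and 26046 and 22977 bp in mES cells. The 3 mES-only members were Myb, required for definitive haematopoiesis (6274 and 7991 bp), Zeb2 (14740 and 14820 bp) and Lmo2, a partner of Tal1 (501 bp in both). In every one of these genes both HSPC libraries lay below both mES libraries. Gata2, a factor of stem cells and early progenitors, kept wide domains in both cell types, with 19242 and 19786 bp in HSPCs and 24241 and 24939 bp in mES cells. Runx1 was marked by 660 bp in HSPC replicate 1, by no peak in HSPC replicate 2 and by 3104 and 940 bp in mES cells, and its body was 2.55% and 2.05% covered in HSPCs and 37.8% and 44.2% in mES cells. Meis1 had overlapping widths, 4461 and 3336 bp in HSPCs and 3641 and 5272 bp in mES cells.

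**Figure D4:**
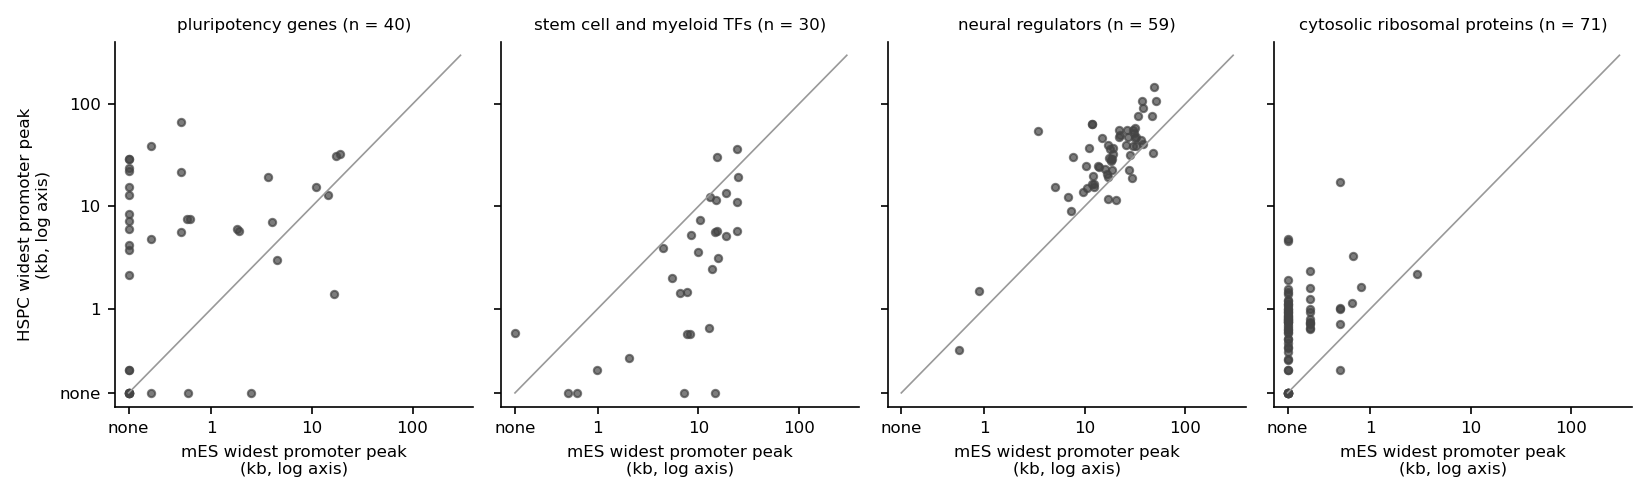
Widest H3K27me3 peak touching each promoter in HSPCs (y axis) and mES cells (x axis), as the mean of 2 libraries in kb on log axes, with none marking genes without a peak in either library and a line of equality. Stem cell and myeloid transcription factors lie mostly under the line, neural regulators mostly above it, and many pluripotency genes and most cytosolic ribosomal proteins lie at or near the left edge, with list medians of 0 bp in mES cells for both.

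Lists of differentiated blood cell genes held more mES-only members than all promoters did, and most also held HSPC-only members. The mES-only share was 15.4% (4 of 26) for erythroid and megakaryocyte genes, 16.1% (5 of 31) for progenitor and myeloid surface, receptor and granule genes, 40.0% (4 of 10) for mast cell and basophil genes, 20.8% (5 of 24) for B lymphoid genes and 19.4% (6 of 31) for T and NK lymphoid genes, where 5.16% of all promoters had this call. CpG-rich windows made up 0% to 16.1% of these lists, against 30.8% of all promoters. Among all promoters, mES-only calls were most frequent, at 12.2% and 11.1%, in the 2 CpG bins from 0.2 to 0.4. How far CpG content accounts for the list shares was not tested. HSPC-only members numbered 2 of 26, 3 of 31, 0 of 10, 3 of 24 and 3 of 31 in the same order, shares of 0% to 12.5% beside 14.3% of all promoters. Among them were Nfe2, an erythroid and megakaryocyte factor (776 and 985 bp), Laptm5, a lysosomal protein of blood cells (1405 and 1258 bp), Spib, an ETS factor of B cells (1875 and 33810 bp), and Cd79a, a B-cell receptor subunit (501 and 692 bp). Mpo had mES peaks of 14559 and 12679 bp and none in HSPCs. Elane, neutrophil elastase, had 2291 and 14234 bp in mES cells, Vav1, a signalling protein of blood cells, 6361 and 10515 bp, and Gp9, a platelet glycoprotein, 5018 and 7434 bp, again with none in HSPCs. The mast cell genes called mES only were Hdc, Cma1, Mcpt4 and Gzmb, with mES peaks from 883 to 3482 bp. B and T lymphoid genes split. Prf1, which encodes perforin (4774 and 6329 bp), was mES only. Cd2, an adhesion receptor of T and NK cells, was HSPC only at 37473 and 36692 bp. The lymphoid regulators Pax5, Ebf1 and Gata3 were marked in all 4 libraries. Pax5 had 51072 and 64812 bp in HSPCs and 20024 and 31235 bp in mES cells, and Ebf1 28772 and 22265 bp against 7798 and 7833 bp, so that these B-cell factors were wider in both HSPC libraries. Kit, which encodes the receptor used in the sort, was marked in all 4 by peaks of 767 and 1037 bp in HSPCs and 805 and 891 bp in mES cells. Ptprc, the pan-leukocyte gene for CD45, had no peak in any library.

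Signalling genes of the immune system followed, in lists with 8.62% and 6.25% CpG-rich windows. Of 58 chemokines and chemokine receptors, 9 (15.5%) were mES only and 3 HSPC only. Of 64 interleukins and interleukin receptors, 10 (15.6%) were mES only and 7 HSPC only, and of the 21 marked in all 4, mES peaks were at least 2 times as wide at 11 and HSPC peaks at 2. Il10ra, a receptor subunit for interleukin-10, had 901 and 2372 bp in HSPCs and 25421 and 23068 bp in mES cells. Il12rb1, a subunit of the interleukin-12 receptor, was mES only at 30082 and 30022 bp.

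Regulators of embryonic development were mostly marked in both cell types, and the median peaks of the neural, mesodermal and endodermal lists were wider in HSPCs. Of 59 neural regulators 58 were marked in all 4 libraries, as were 46 of 50 mesoderm, heart and muscle regulators, 21 of 29 endoderm regulators, all 19 Wnt ligands and all 9 Hoxc and all 9 Hoxd genes. Among members marked in all 4, HSPC peaks were at least 2 times as wide as mES peaks at 11 of 58 neural, 11 of 46 mesodermal and 6 of 21 endodermal regulators. The reverse held for 0 in each of these lists. Over all promoters marked in all 4 the shares were 15.1% (1157 of 7642) and 16.2%, so the neural share of wider HSPC peaks lay near background. The median widest peaks of the Wnt ligands overlapped, at 20752 and 23296 bp in HSPCs and 17223 and 24755 bp in mES cells. The median widest peak of the neural list was 32298 and 34903 bp in HSPCs and 16306 and 21314 bp in mES cells. Zic2, a zinc finger factor of the neural plate, had 52970 and 57303 bp in HSPCs and 2353 and 4543 bp in mES cells. Gata4, a factor of heart and endoderm, had 51711 and 57786 bp against 9006 and 10573 bp, and its body was 99.2% covered in both HSPC libraries and 53.4% and 57.4% covered in mES cells. Pax6, an eye and brain regulator, was closer, with 48147 and 46334 bp in HSPCs and 20026 and 44854 bp in mES cells. Sox17 and T, regulators of endoderm and mesoderm, were fully covered at the promoter in all 4 libraries. Wnt5a did not separate, with 17916 and 15156 bp in HSPCs and 14520 and 25395 bp in mES cells.

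The Hox clusters were not alike. The widest HSPC peak of all spanned the Hoxc cluster (chr15:102871450-103153409), where 9 Hoxc genes start. It was 75.8% covered in mES replicate 1 and 80.7% in replicate 2, by separate peaks of at most 69.7 and 97.8 kb. The next widest HSPC peaks lay over Pax2 (chr19:44707971-44855025, 147.1 kb) and Rhcg (chr7:79483456-79620246, 136.8 kb), the first a kidney and hindbrain regulator and the second an ammonium transporter. The widest mES peak lay over the Hoxb cluster (chr11:96261433-96377279, 115.8 kb, 9 starts), 88.0% and 85.5% of which was covered in HSPCs. Inside it Hoxb3 had no promoter peak in either HSPC library, and Hoxb4, a gene linked to stem cell expansion, had peaks of only 1200 and 1767 bp there and lay under 115847 and 87258 bp in mES cells. In the Hoxa cluster the HSPC domain reached 96483 and 95470 bp at Hoxa9 and Hoxa13, against 24061 and 62824 bp at Hoxa9 and 8982 and 11924 bp at Hoxa13 in mES cells. Hoxa5 in the same cluster was mES only, and Hoxa4 was covered by 784 and 2036 bp in HSPCs and 20188 and 62824 bp in mES cells. The other wide mES peaks were at Zfpm1, which encodes the GATA1 cofactor FOG1 (chr8:122215475-122313371, 97.9 kb), and at Hoxc. Zfpm1 was 63.0% and 66.5% covered in HSPCs, where its widest piece was 13.9 and 12.4 kb.

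The germ line and the clustered protocadherins made up the other mES-only groups, with CpG-rich windows at 26.3% and 3.51% of members. Of 38 germ line genes 11 (28.9%) were mES only and 1, Nanos3, was HSPC only. They included Ddx4, an RNA helicase of germ cells, with mES peaks of 6748 and 6487 bp, Brdt, a bromodomain protein of the testis, with 4028 and 5081 bp, and Sohlh2, a factor of early germ cell differentiation, with 3738 and 3712 bp. None of these had a promoter peak in HSPCs. Dazl, an RNA-binding protein of germ cells, had 501 bp in HSPC replicate 1, no peak in replicate 2 and 2422 and 2294 bp in mES cells. Of the 57 clustered protocadherins, adhesion proteins that give neurons their surface identity, 24 (42.1%) were mES only and 0 HSPC only. The beta subfamily gave 18 of these. All 22 of its members were marked in each mES library, with a median of 77.0% and 78.4% of the window covered, and 3 in each HSPC library. Of 21 gamma members 12 were marked in all 4. These genes sit side by side in a few clusters, and neighbours can lie under the same peak.

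Genes of the basic cell machinery were in most lists marked more often in HSPCs only than promoters at large, by narrow peaks. The HSPC-only share was 46.5% (33 of 71) for cytosolic ribosomal proteins, 36.4% (28 of 77) for mitochondrial ribosomal proteins, 34.0% (16 of 47) for proteasome subunits, 36.4% (16 of 44) for translation initiation factors, 48.6% (17 of 35) for aminoacyl-tRNA synthetases, 28.6% (10 of 35) for respiratory complex I and 47.2% (25 of 53) for splicing factors, beside 14.3% of all promoters. RNA polymerase subunits lay near that background at 18.5% (5 of 27), and a peak touched 37.0% and 44.4% of them in mES cells. CpG-rich windows made up 31.2% to 63.4% of these 8 lists, against 30.8% of all promoters. Among all promoters in the CpG bin from 0.8 to 0.9, 30.8% were HSPC only. How far CpG content accounts for the list shares was not tested. In these 8 lists together the mES-only calls were Mrps24 and the immunoproteasome gene Psmb8. A peak touched 81.7% and 78.9% of the cytosolic ribosomal protein promoters in HSPCs and 18.3% and 22.5% in mES cells. Their median widest peak was 711 and 766 bp in HSPCs and 0 bp in mES cells, and their median gene body cover was 0% in all 4 libraries. No member of the 8 lists was HSPC only with a peak of at least 5 kb in both HSPC libraries. Eif1 had 1355 and 1615 bp in HSPCs and none in mES cells, Polr2a, the largest subunit of RNA polymerase II, 913 and 1179 bp and none, and Actb, which encodes beta-actin, 3285 and 3048 bp and none. Gapdh had 2516 and 641 bp in HSPCs, none in mES replicate 1 and 501 bp in mES replicate 2. With peaks of at least 1 kb only, the HSPC-only share of cytosolic ribosomal proteins was 15.5% (11 of 71) beside 9.13% of all promoters, and the other 7 lists ranged from 7.79% (6 of 77) for mitochondrial ribosomal proteins, below all promoters, and 10.6% (5 of 47) for proteasome subunits, near them, to 25.9% (7 of 27) for RNA polymerase subunits. Lists of equal length drop narrow peaks almost only from the mES lists, which favours HSPC-only calls by construction. In that setting the share of cytosolic ribosomal proteins was 64.8% (46 of 71) beside 19.1%. Actb and Gapdh belong to a list outside these 8, of 16 widely expressed genes, with 9 (56.2%) HSPC only and 0 mES only. With peaks of at least 1 kb only, 3 of the 16 were HSPC only and 2 mES only. Of 67 replication-dependent histone genes, 14 (20.9%) were HSPC only and 3 (4.48%) mES only. The signal behind the narrow HSPC peaks at these genes could not be examined, and what they reflect was not tested.

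**Figure D5:**
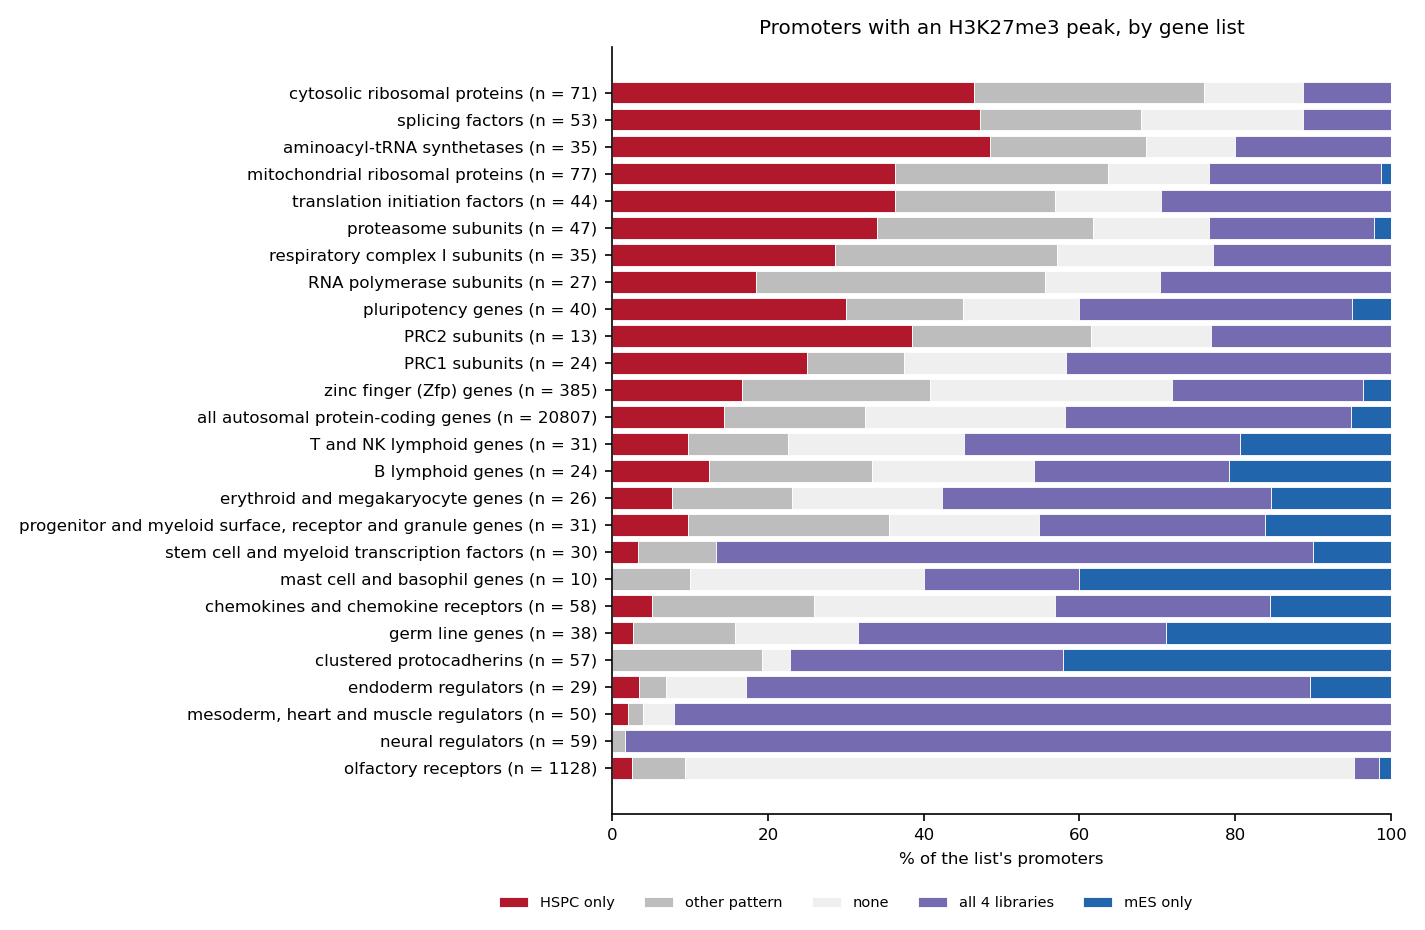
Percentage of the promoters of each gene list (x axis) that were marked in HSPCs only, in another pattern, in none, in all 4 libraries or in mES cells only, with the number of genes per list beside its name. Cell machinery lists lie at the top with HSPC-only shares up to 48.6%, clustered protocadherins reach 42.1% mES only, and neural regulators are marked in all 4 libraries for 58 of 59 genes.

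Polycomb and DNA methylation genes were themselves partly marked. Of 13 PRC2 genes 5 were HSPC only, among them the core subunits Eed (746 and 1222 bp) and Suz12 (501 and 1054 bp) and the accessory subunit Epop (13161 and 18168 bp). Ezh2 had narrow peaks in all 4 libraries, 632 and 628 bp in HSPCs and 501 bp in each mES library. Of 24 PRC1 genes 6 were HSPC only and 0 mES only. Among all promoters 14.3% were HSPC only. With peaks of at least 1 kb only, HSPC-only calls fell to 1 of 13 PRC2 genes (7.69%) and 2 of 24 PRC1 genes (8.33%). All promoters stood at 9.13% in that setting, and 2 PRC1 genes were mES only. CpG-rich windows made up 84.6% of the PRC2 list and 79.2% of the PRC1 list, against 30.8% of all promoters. Whether CpG content accounts for these counts was not tested. Of 22 TET, DNA methyltransferase, MBD and PR-DUB genes, 4 (18.2%) were HSPC only and 2 (9.09%) mES only, beside 14.3% and 5.16% of all promoters. With peaks of at least 1 kb only, 2 were HSPC only and 4 mES only. Tet2, the gene deleted in the KO cells, had no peak in any of the 4 WT libraries. Tet3 had no promoter peak in HSPC replicate 1, 706 bp in replicate 2 and 72737 and 84119 bp in mES cells. Mbd6, a methyl-CpG-binding domain protein linked to the deubiquitinase complex PR-DUB, was HSPC only with 2584 and 3845 bp, and Dnmt3b, a de novo DNA methyltransferase, mES only with 2654 and 4299 bp. Cdkn2a, a cell cycle inhibitor and known Polycomb target, was marked in all 4, by 31134 and 31280 bp in HSPCs and 2830 and 4290 bp in mES cells.

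The genes with the greatest contrast were taken from cover within 5 kb of the start. In the HSPC-only class 37 genes tied at full cover of 10001 bases in both HSPC libraries and none in either mES library, and the first 10 in genome order were Gli2, Chn1, Nckap1, Sall4, Ptgfrn, Cd2, Ttc39b, Alpl, Pla2g5 and Epha2. Alpl, the tissue-nonspecific alkaline phosphatase used as a stain for stem cell colonies, had peaks of 11728 and 12481 bp in HSPCs and 73.7% and 67.6% of its body covered. Epha2, an ephrin receptor, had 47497 and 32255 bp. In the mES-only class the leading 10 were Lpin2, Rin3, Pdilt, Stx11, Retn, Inpp5j, Nin, Thbs2, H1foo and Cntn4, and Lpin2 led with 9504 and 10001 bases covered in mES cells and 0 in both HSPC libraries. Stx11, a syntaxin of cytotoxic lymphocytes, had mES peaks of 9285 and 12180 bp. H1foo, the oocyte linker histone, had 10021 and 68380 bp. Thbs2, a matrix glycoprotein, had 26848 and 40803 bp, with 501 bases covered within 5 kb in HSPC replicate 2.

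Gene bodies gave a different balance from promoters. Outside the promoter window, bodies at least 50% covered numbered 2261 and 2331 in HSPCs and 2504 and 2924 in mES cells, of 19408 with at least 1 kb left (exact permutation p = 0.333). The mean difference of -418 bodies was -208 without mES replicate 2 and -628 without mES replicate 1. Of the bodies tested, 1387 passed in all 4 libraries. Bodies at least 50% covered in both HSPC libraries and under 10% in both mES libraries numbered 203, or 1.05%, and the reverse 301, or 1.55%. The HSPC-only bodies had a median length of 9.55 kb and the mES-only bodies 9.59 kb, both shorter than the 18.9 kb of all bodies. Their promoters were HSPC only for 92 of 203 and marked in all 4 for 77. For the mES-only bodies the promoters were mES only for 102 of 301 and marked in all 4 for 127, so that in the latter the cell types shared the promoter mark and differed in the body.

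By number of bases the leading HSPC-only bodies were Tead1, Kank1, Tjp1, Prkcz and Ttc39b. Tead1, a DNA-binding partner of YAP, was 93.3% and 95.6% covered in HSPCs and 0% and 0.221% in mES cells. Kank1, a cytoskeletal adaptor, was 87.2% and 85.1% covered in HSPCs and 4.03% and 4.06% in mES cells, although its promoter was fully covered in all 4. Tjp1 and Prkcz, a tight junction protein and a polarity kinase of epithelial cells, were 58.9% and 57.2% and 92.2% and 94.8% covered in HSPCs, and at most 5.93% in mES cells. The leading mES-only bodies were Prdm16, Kcnd3, Col4a2, Tet3 and Eya2. Prdm16, a factor of stem cell maintenance, was 67.8% and 73.4% covered in mES cells and 8.40% and 8.72% in HSPCs, with the promoter fully covered in all 4. Tet3, a 5-methylcytosine dioxygenase of the same family as Tet2, was 93.7% and 94.9% covered in mES cells and 2.30% and 2.85% in HSPCs. Col4a2, a basement membrane collagen, was 80.2% and 89.6% covered against 9.08% and 9.56%. The contrast in these bodies follows from how they were chosen.

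The olfactory and vomeronasal receptor families stayed mostly outside the comparison. Of 1128 olfactory receptor genes 970 (86.0%) and of 327 vomeronasal receptor genes 318 (97.2%) had no promoter peak in any of the 4 libraries. Zinc finger genes of the Zfp series were HSPC only for 64 of 385 (16.6%), near the 14.3% of all promoters, and mES only for 14 (3.64%), near 5.16%. Endothelial genes, which could enter a marrow sort, were marked in all 4 for 11 of 16 and in 1 cell type only for 0, and fibroblast and stromal genes for 12 of 20 with 1 mES only.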

How the data were processed

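H3K27me3 was profiled by CUT&Tag, in which a transposase tethered to the antibody cuts DNA beside the mark. According to the study's methods and the labels, reads were trimmed with Trimmomatic 0.39, aligned with Bowtie2 2.4.1 to mm10 with a Drosophila spike-in, and stripped of duplicates. The methods name MACS2 in broad mode for peaks and the submitters' processing notes list HOMER 4.9, so the caller of these lists is uncertain. The deposited lists, 1 per library, hold peak positions called by the authors, with no counts or scores and no spike-in scaling, and depth is therefore unknown.

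Only autosomes were used. Peaks were compared with GENCODE M21 protein-coding genes (Python 3.11.15, numpy 2.4.6, bedtools 2.31.1). A promoter was marked when a peak touched at least 1 bp within 1 kb of the start. A gene body, at least 1 kb outside that window, was marked at 50% cover and unmarked under 10%. Library values were compared by the two-sided exact permutation test over 6 assignments. Scripts were tested on simulated data. The H2AK119ub and KO lists served only as side values.

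The text names the 10 genes per promoter class with the largest contrast (lowest cover within 5 kb in one cell type minus highest in the other, ties in genome order), the 5 leading bodies per class, and members of 45 gene lists. List examples beyond the first ranks were chosen after their values were seen. The members and lists were chosen with earlier results of these data known. Alternatives were a promoter of 2 kb on each side, starts of any protein-coding transcript, 50% promoter cover, peaks of at least 1 kb, joining of peaks within 1 kb, equal numbers of peaks, body cover of 25%, omission of each library, a replicate block and, added after seeing the data, promoter peaks of at least 5 kb. Replicate numbers shared between cell types do not mark a known pairing.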

Additional observations from a re-analysis of the deposited data

How the results depend on the processing

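With 2 libraries per group the smallest possible p is 0.333, and the alternatives bear on direction and size only. Counting only promoter peaks of at least 5 kb, chosen after seeing the data, turned the difference in covered promoters (HSPC minus mES) from 2490.5 to -406.5. It gave 828 HSPC-only promoters, 1131 mES-only promoters and 2041 marked in all 4, against 2982, 1073 and 7642 in the main setting. Of the 2982, only 188 had such a peak in both HSPC libraries, so most of the 828 had another call in the main setting. With peaks of at least 1 kb the counts were 1900, 1430 and 4464 in the same order. With 50% of the window covered they were 1830, 1415 and 4160. Restriction to peaks of 1 kb or more took the share between genes to a difference of -0.2552 percentage points (exact permutation p = 1). A body threshold of 25% gave 535 HSPC-only and 770 mES-only bodies. With equal numbers of peaks the peak number is equal by construction, and the narrow peaks removed come almost only from the mES lists, which favours HSPC-only calls.

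Leaving out each library in turn gave differences of -64.7 to -21.65 Mb in covered length, -34050 to -23369 in peak number, 2236.5 to 2744.5 in covered promoters, -628 to -208 in marked bodies, 724 to 1428 bp in width at 50% of the covered length, 7.177 to 11.84 percentage points in the share in peaks of at least 10 kb, 2.221 to 3.042 in the share in promoters and -2.553 to -0.8733 in the share between genes. The ends of the covered length and body ranges came from leaving out mES replicate 1 and mES replicate 2 respectively. HSPC-only promoters ranged from 3377 to 3779, mES-only from 1175 to 1540 and those marked in all 4 from 7963 to 8274, HSPC-only bodies from 216 to 281 and mES-only bodies from 311 to 435. Leaving out a library removes a condition from each class, so these counts cannot fall. All lay above the main counts of 2982, 1073, 7642, 203 and 301 in the same order.

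With the replicate number as a block, over 4 arrangements, the smallest possible p is 0.5, which was reached for covered length (-43.18 Mb), covered promoters (2490.5), bodies (-418) and width (1076 bp). Deviations of same-numbered libraries correlated at r = -0.012 over 15475 promoters. With 1 difference per cell type this cannot show whether same-numbered libraries shared a batch, and no pairing is known. Peak lists carry no depth, and differences in depth, list length and extent of the mark cannot be told apart.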
